A study of Homo sapiens with 12 samples.

Results

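REST and 31 neuronal genes that it is known to repress were followed across 4 groups of HEK293T cells. The 32 genes were taken from a list of names, with no threshold on a measured value but with earlier results of these data known, and each was read from its brightest array row that carries exactly 1 gene symbol. In this way 31 of the 32 had a value, out of 18417 genes in the whole table. TUBB3, a neuronal tubulin, had no row of its own, since the row that holds it carries several symbols, and it has no value here. The 31 measured genes are REST itself and 30 of its targets, with 1 row each.

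HEK293T is an established line from human embryonic kidney that carries the SV40 large T antigen. Every group was transfected with pRS-RFP-C plasmids and lysed after 78 h, according to the labels. The control group (shCTRL) received a non-targeting shRNA, and the others received shRNAs to LSD1 (shLSD1), to UBE4B (shUBE4B) or to both (shUBE4B+shLSD1, the double knockdown). Each group held 3 arrays, labelled as biological replicates of 1 cell line, so the spread is that between transfected dishes. By the study's text, the cells of every group also held a misfolding SOD1 mutant, which the labels do not name. RNA was measured on Affymetrix Human Gene 1.0 ST arrays as log2 signals, in which a difference of 1 is a doubling. Array medians lay between 7.00 and 7.06. Differences were tested with limma over all 12 arrays and counted as a call where the p adjusted by Benjamini-Hochberg across the 18417 genes was below 0.05. UBE4B fell to 37.8% of its control level in shUBE4B and to 37.4% in the double knockdown, and KDM1A, which encodes LSD1, fell to 41.6% in shLSD1 and to 46.0% in the double knockdown. In these bulk samples, fewer cells with an RNA and less of that RNA per cell cannot be told apart.

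REST is a zinc finger repressor that keeps neuronal genes low outside the nervous system. It binds a DNA element called RE1 and brings 2 sets of cofactors, the SIN3 complex with histone deacetylases, and the CoREST complex, in which RCOR1 holds LSD1 and deacetylases together. LSD1 is a demethylase that takes methyl groups off a lysine of histone H3. REST protein is itself short-lived, because the F-box protein BTRC marks it for ubiquitination and the proteasome. UBE4B is a ubiquitin ligase that extends ubiquitin chains and works with the p97 segregase. The comparisons asked whether RNA of REST and of its targets differed where LSD1, UBE4B or both had been reduced.

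To show the element that REST reads, the windows from 250 bases before to 50 bases after each gene start were searched for the boxes TTCAGCACC and GGACAGC, 2 bases apart, on both strands, with up to 3 mismatches over 16 positions. Windows came from RefSeq, assembly GRCh38.p14. Among all 27305 genes with a window, 180 held such an element (0.659%). Of the 22 members with a window (41 windows), 2 did, GRIA2 and SYN1. SNAP25, STMN2, NEFL, NEFM, NEFH, ELAVL3, GRIN1, SCN3A, CPLX1 and CALB1 had no window. These 2 are the members, of those with a window, in which the element stands near the start, and they are printed along their own gene's strand with both boxes in capitals.
GRIA2: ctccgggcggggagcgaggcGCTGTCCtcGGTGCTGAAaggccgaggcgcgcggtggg
SYN1: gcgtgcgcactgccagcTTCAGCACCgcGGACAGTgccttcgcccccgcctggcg
The GRIA2 stretch is chr4:157220371-157220428 on the plus strand. Its element runs from -228 to -211 of the start, lies on the strand opposite to the gene and has 0 mismatches. The SYN1 stretch is chrX:47620053-47620107 on the minus strand, with the element from -233 to -216 and 1 mismatch. GRIA2 is an AMPA glutamate receptor subunit and SYN1 is synapsin I, which ties synaptic vesicles to the cytoskeleton. A match is a description of these letters and was not tested as a binding site.

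A second search, added after sequences had been seen, asked for both exact boxes 3 to 10 bases apart. It found 9 of the 27305 genes (0.033%) and 0 of the 22 members, but 2 of 25 other REST targets on a separate list, SCG3 and UNC13A. VGF, from that list too, had the usual spacing of 2 with 1 mismatch. SCG3 and UNC13A are shown because they are among the genes whose signal changed, as given further down, while VGF was not called. Neither search found an element in STMN3, KCNC1, BDNF, CELF3, INA or HCN3, members with a window that were called lower in shUBE4B. None was found either in SYP, RUNDC3A, MAPK8IP2 or RAB3A of that list, also called lower, as far as these have a window. Whether elements and changes go together was not tested.
SCG3: aacTTCAGCACCcacagggcGGACAGCgct
UNC13A: ggcGCTGTCCgcgcccccGGTGCTGAAcca
VGF: gcgggcGCTGTCCagCGTGCTGAAgccgga
SCG3 is chr15:51681508-51681537, plus strand, with boxes 8 bases apart from +9 to +32 of the start. UNC13A is chr19:17688337-17688366, minus strand, with boxes 8 bases apart from -9 to +15. VGF is chr7:101165553-101165582, minus strand, with the element from -7 to +11. UNC13A and VGF were named here after their values had been seen.

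Most REST targets were dim in these cells. As a yardstick, 29 genes restricted to other tissues, such as blood, skin and germ cell genes, had mean signals with a median of 5.75 and a 90th percentile of 7.26. A member below 7.26 is called dim. The line is not a sharp border, because 3 of the 29 genes lay above it, the highest at 7.99, and STX1A and GAD1 were under that value too. By this measure 19 of the 31 members were dim and 12 were not. The 30 targets had a median signal of 6.70, against 7.70 over all genes. The 12 members above this line were REST (mean of 12 arrays 9.33), the neurofilament protein internexin INA (10.60), the light and medium neurofilament chains NEFL (9.48) and NEFM (8.01), STMN3 (9.18), the pacemaker channel HCN3 (8.62), the calcium sensor SYT1 (8.52), SYN2 (8.41), CPLX1 (8.10), the potassium channel KCNC1 (8.09), syntaxin STX1A (7.78) and the GABA-synthesizing enzyme GAD1 (7.72). The lowest of the members were GRIA2 (4.64), CALB1 (4.71), SCN3A (4.79), ELAVL4 (4.99) and SCN2A (5.01). CELF3 (7.14) and SYN1 (7.12) lay just under the line and GAD1 was the nearest above it.

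**Figure D1:**
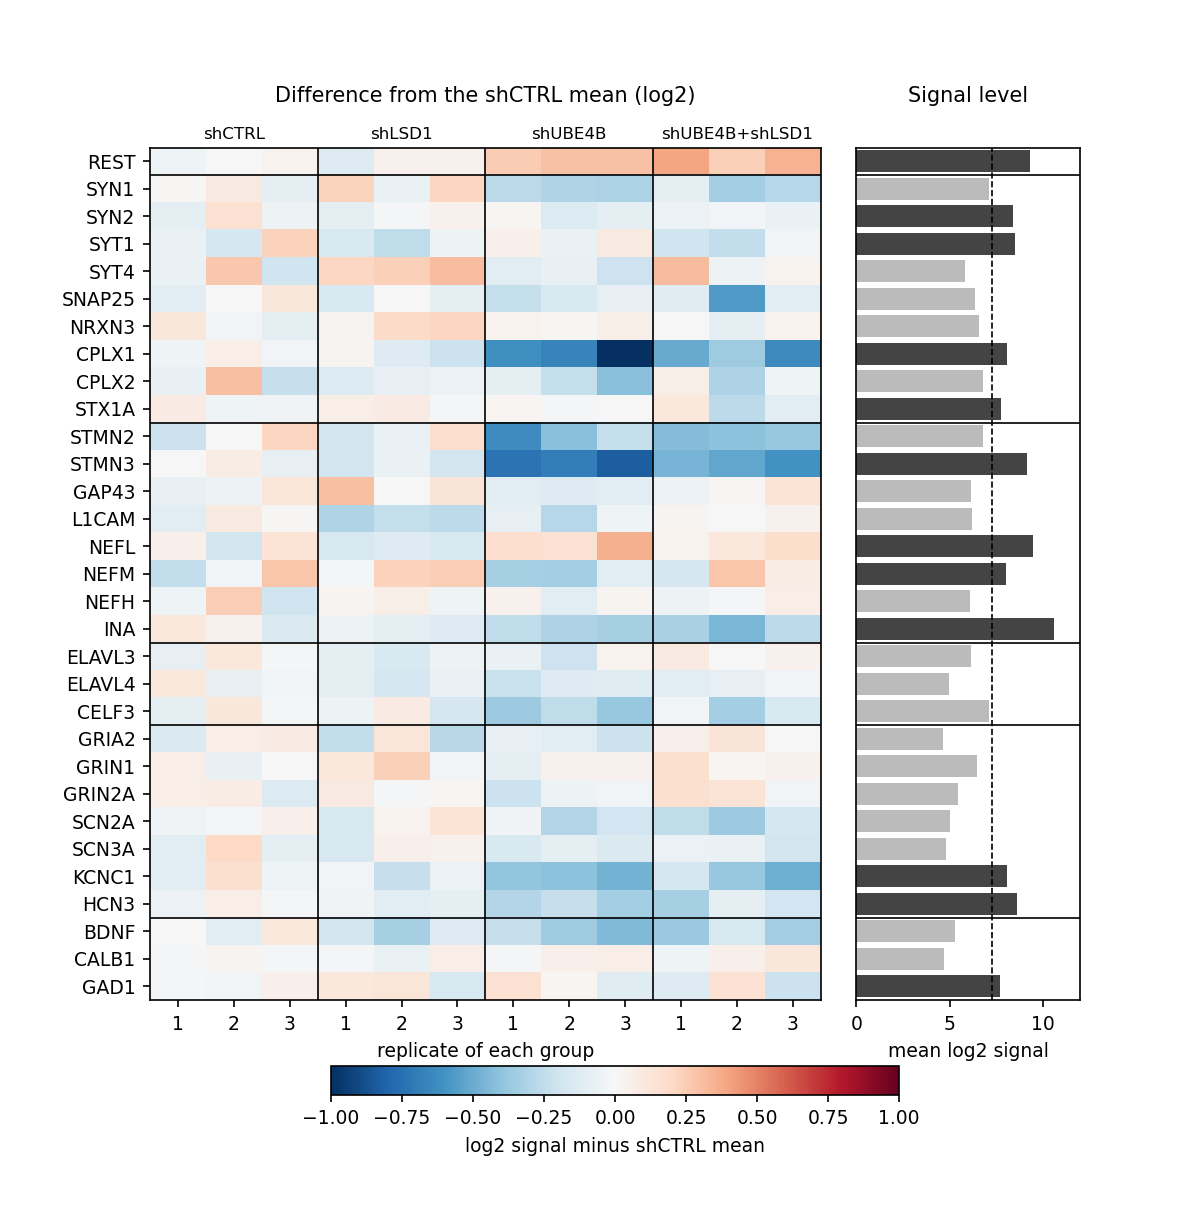
The left panel shows the 31 measured members in rows and the 12 arrays in columns, colored by log2 signal minus the shCTRL mean, with lines between groups of arrays and between roles of genes. The right panel shows each member's mean log2 signal over 12 arrays (gray bars are dim, and the dashed line is 7.26). REST is higher in the 6 arrays with UBE4B shRNA, while STMN3 and CPLX1 are lower in these 6 arrays than in the others.

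With UBE4B shRNA, REST RNA was higher and 8 of its targets were lower than in shCTRL, and no target was higher. The share of all genes called was 5.59% for higher and 4.47% for lower, against 8 of 30 targets lower. The lower genes were STMN3, CPLX1, KCNC1, STMN2, BDNF, CELF3, INA and HCN3, of which 5 were above the background line and STMN2, BDNF and CELF3 were dim. In all, 24 of the 30 targets had a log2 change below 0, and their median change was -0.14, while over all genes 56.5% were below 0 with a median of -0.03. The 29 genes of other tissues, which are dim as well, had 22 below 0, a median of -0.06 and 3 called lower, and what that shift has to do with the dim targets was not tested. After a further quantile normalization the median of the 31 members was -0.08 in place of -0.14. The 9 calls became 4, 4 and 3 without shUBE4B replicates 1, 2 and 3, and 5 without shCTRL replicate 2, the array least like its own group (mean correlation with the others 0.993). Over all genes the 1854 calls became 909, 927 and 918 without these shUBE4B arrays, and 1226 without that control array. STMN3 and CPLX1 were lower in shUBE4B with each of the 12 arrays left out in turn.

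REST stood at 9.15, 9.19 and 9.22 in shCTRL and at 9.05, 9.23 and 9.23 in shLSD1. It stood at 9.44, 9.48 and 9.48 in shUBE4B and at 9.58, 9.42 and 9.53 in the double knockdown. The 6 arrays with UBE4B shRNA were all above the 6 without it, and the 2 groups on each side overlapped. How many of all genes separate in this way was not counted, here or for the genes below. REST rose by 0.28 on the log2 scale in shUBE4B (standard error 0.07, limma adjusted p = 0.0187), which is 121% of the control level. In the double knockdown the rise was 0.33 (standard error 0.07, limma adjusted p = 0.00882) and against shLSD1 it was 0.34 (limma adjusted p = 0.0165). Between shLSD1 and shCTRL the difference was -0.02, with a 95% interval of -0.16 to 0.13 (limma adjusted p = 0.951). The call in shUBE4B was lost when any 1 of the 3 shUBE4B arrays was left out, where the adjusted p reached at most 0.0653 over all alternatives. The call against shLSD1 was lost without shLSD1 replicate 1 and without replicate 1 or 3 of the double knockdown.

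Among genes of the axon and cytoskeleton, STMN3, STMN2 and INA were lower with UBE4B shRNA. Stathmins such as STMN3 and STMN2 bind tubulin and promote turnover of microtubules. STMN3 had signals of 9.54, 9.61 and 9.46 in shCTRL, 9.35, 9.47 and 9.35 in shLSD1, 8.80, 8.85 and 8.71 in shUBE4B, and 9.07, 9.02 and 8.93 in the double knockdown. All 6 arrays with UBE4B shRNA lay below the 6 others, with shUBE4B below the double knockdown. STMN3 fell by 0.75 in shUBE4B, to 59.4% of control (standard error 0.07, limma adjusted p = 9.78e-05). The fall was 0.53 with both shRNAs, to 69.3% of control (standard error 0.07, limma adjusted p = 0.000478), and 0.38 when they were set against shLSD1 (limma adjusted p = 0.00995, lost without shLSD1 replicate 2).

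INA, an intermediate filament protein of axons, was the brightest member. Its signals were 10.89, 10.83 and 10.64 in shCTRL, 10.74, 10.68 and 10.66 in shLSD1, 10.53, 10.48 and 10.45 in shUBE4B, and 10.46, 10.33 and 10.52 in the double knockdown. The 6 arrays with UBE4B shRNA were again below all others, the nearest being 10.64 for shCTRL replicate 3 and 10.53 for shUBE4B replicate 1. INA fell by 0.30 in shUBE4B (standard error 0.07, limma adjusted p = 0.0245) and by 0.35 in the double knockdown (standard error 0.07, limma adjusted p = 0.013). The first call was lost without shCTRL replicate 1 or 2 or any 1 shUBE4B array, and the second without shCTRL replicate 1 or replicate 2 of the double knockdown.

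STMN2 was dim, at 6.81, 7.01 and 7.23 in shCTRL, 6.83, 6.95 and 7.19 in shLSD1, 6.39, 6.60 and 6.78 in shUBE4B, and 6.58, 6.61 and 6.63 in the double knockdown. Its highest shUBE4B array lay just under the lowest control array, while the double knockdown was clear of the control. STMN2 fell by 0.43 in shUBE4B (standard error 0.12, limma adjusted p = 0.0396), a call that 12 of 21 alternatives ended, among them the removal of shCTRL replicate 2 or 3, of shUBE4B replicate 1 or 2, of shLSD1 replicate 2, or of replicate 1 or 3 of the double knockdown. In the double knockdown its change was -0.41 (limma adjusted p = 0.0564). The other cytoskeletal and axonal members did not pass the test in any comparison. NEFL had a change of 0.23 in shUBE4B (limma adjusted p = 0.105), the one in that direction at an unadjusted p under 0.05 apart from REST, and it was called higher when shCTRL replicate 3 was left out. NEFM, NEFH, the growth cone protein GAP43 and the adhesion molecule L1CAM had changes of -0.26, -0.01, -0.12 and -0.14 in shUBE4B.

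Among synaptic genes, CPLX1 was lower. Complexin I clamps and then promotes the SNARE machinery that fuses vesicles. CPLX1 had signals of 8.40, 8.50 and 8.41 in shCTRL, 8.46, 8.31 and 8.23 in shLSD1, 7.83, 7.77 and 7.42 in shUBE4B, and 7.94, 8.08 and 7.80 in the double knockdown. No array with UBE4B shRNA reached any without it. CPLX1 fell by 0.76 in shUBE4B, to 58.9% of control (standard error 0.11, limma adjusted p = 0.00109), and by 0.50 in the double knockdown, to 70.8% (standard error 0.11, limma adjusted p = 0.012, lost without replicate 3 of the double knockdown). Against shLSD1 the double knockdown differed by -0.39 (limma adjusted p = 0.0716).

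SYN1, which has the element printed above, was dim and read 7.24, 7.31 and 7.12 in shCTRL, 7.45, 7.16 and 7.44 in shLSD1, 6.96, 6.92 and 6.91 in shUBE4B, and 7.13, 6.87 and 6.94 in the double knockdown. The shUBE4B arrays lay below the control arrays, while 1 array of the double knockdown fell among them. Its change of -0.29 in shUBE4B missed the threshold (limma adjusted p = 0.0541), and it fell by 0.37 between shLSD1 and the double knockdown (standard error 0.09, limma adjusted p = 0.046). That call was lost in 13 of 22 alternatives, including the removal of shCTRL replicate 1, of any 1 shUBE4B array, of shLSD1 replicate 1 or 3, or of replicate 2 or 3 of the double knockdown. The other 7 synaptic members (SYN2, SYT1, SYT4, SNAP25, NRXN3, CPLX2 and STX1A) passed the test in no comparison. SYN2, SYT1 and STX1A, the brighter ones, had changes of -0.07, 0.02 and 0.00 in shUBE4B.

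Among channels and receptors, KCNC1 and HCN3 were lower. KCNC1 is a voltage-gated potassium channel that lets neurons fire fast, and HCN3 belongs to the family of channels opened by hyperpolarization. KCNC1 read 8.19, 8.47 and 8.26 in shCTRL, 8.28, 8.07 and 8.25 in shLSD1, 7.91, 7.89 and 7.84 in shUBE4B, and 8.13, 7.93 and 7.82 in the double knockdown. The shUBE4B arrays were below all arrays of shCTRL and shLSD1, and the double knockdown spread from their level up into that of shLSD1. KCNC1 fell by 0.43 in shUBE4B (standard error 0.09, limma adjusted p = 0.0123, lost without shUBE4B replicate 3) and by 0.35 in the double knockdown (limma adjusted p = 0.0372). The second call was lost in 13 of 22 alternatives, among them each removal of shCTRL replicate 2 or 3, of any 1 shUBE4B array, of shLSD1 replicate 3, or of replicate 2 or 3 of the double knockdown.

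HCN3 read 8.71, 8.83 and 8.75 in shCTRL, 8.73, 8.66 and 8.67 in shLSD1, 8.47, 8.54 and 8.43 in shUBE4B, and 8.44, 8.67 and 8.58 in the double knockdown. HCN3 fell by 0.29 in shUBE4B (standard error 0.07, limma adjusted p = 0.0214), with the shUBE4B arrays below all control arrays. The call was lost without shCTRL replicate 2 or without shUBE4B replicate 1 or 3. In the double knockdown its change was -0.20 (limma adjusted p = 0.0959). The glutamate receptor subunits GRIA2, GRIN1 and GRIN2A and the sodium channels SCN2A and SCN3A were all dim and were called in no comparison. GRIA2, with an exact element in its window, had a change of -0.14 in shUBE4B (limma adjusted p = 0.387) at a mean signal of 4.64.

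CELF3, an RNA-binding splicing factor, and BDNF, a neurotrophin, were dim and lower in shUBE4B. CELF3 read 7.17, 7.38 and 7.26 in shCTRL, 7.22, 7.36 and 7.11 in shLSD1, 6.91, 7.02 and 6.89 in shUBE4B, and 7.24, 6.93 and 7.12 in the double knockdown. CELF3 fell by 0.33 in shUBE4B (standard error 0.09, limma adjusted p = 0.0357), while the double knockdown overlapped the control. The call was lost without shCTRL replicate 2 or 3 or any 1 shUBE4B array.

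BDNF read 5.53, 5.41 and 5.63 in shCTRL, 5.34, 5.19 and 5.40 in shLSD1, 5.29, 5.17 and 5.08 in shUBE4B, and 5.15, 5.36 and 5.18 in the double knockdown. All 9 knockdown arrays lay below the lowest control array. BDNF fell by 0.34 in shUBE4B (standard error 0.09, limma adjusted p = 0.0241, lost without shCTRL replicate 1 or 3 or shUBE4B replicate 2 or 3). Its changes of -0.21 in shLSD1 and -0.29 in the double knockdown did not pass (limma adjusted p = 0.292 and 0.0537). The RNA-binding proteins ELAVL3 and ELAVL4, the calcium buffer CALB1 and GAD1 were called in no comparison.

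**Figure D2:**
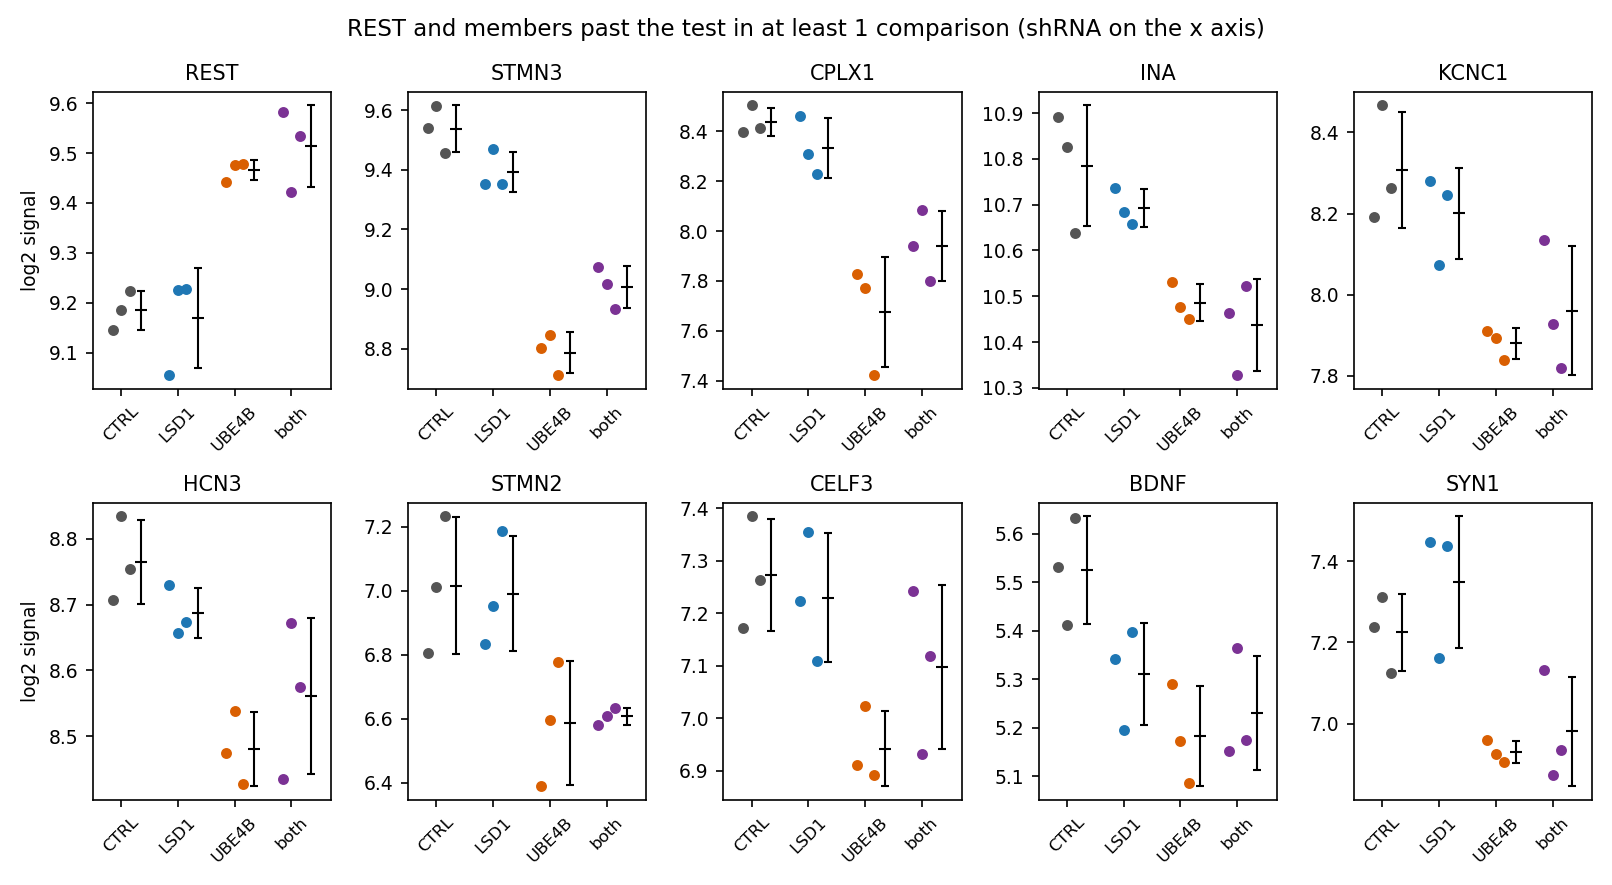
Log2 signal of REST and of the 9 targets called in at least 1 comparison, for each of 12 arrays in 4 groups (points), with the group mean and SD (black bars), on axes that do not start at 0 and differ between genes. For REST, STMN3, CPLX1, INA and STMN2 the groups with UBE4B shRNA (orange, purple) do not overlap the groups without it (gray, blue), whereas the other 5 genes have at least 1 array that does. The genes were picked by calls from these same arrays, and the share of all genes that separate so was not computed.

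In the double knockdown, REST was higher and STMN3, CPLX1, INA and KCNC1 were lower than in shCTRL, beside 3.74% of all genes higher and 3.83% lower. All 4 lower targets were above the background line, and 0 of the 19 dim targets passed limma's test (5 at an unadjusted p under 0.05, a level that 20.7% of all genes reached). The methods' t-test with adjustment gave 0 of them, and called 48 of all 18417 genes. The share of all dim genes that limma called was not computed, so this split by signal shows nothing particular to the targets. Of the 30 targets 19 had a change below 0, beside 53.1% of all genes, and of the 19 dim ones 10 did. The median change of the 30 was -0.08, against -0.01 over all genes. The control arrays are the same ones that served for shUBE4B, so these 2 sets of values share their reference. Without replicate 3 of the double knockdown 3 of these 5 calls were left, while the 1393 calls of all genes became 930. Against shLSD1, which is a separate reference, REST was higher and STMN3 and SYN1 were lower, with 0.977% of all genes called higher and 1.81% lower. L1CAM went the other way there, with a change of 0.29 that missed the threshold (standard error 0.07, limma adjusted p = 0.0546) and was called higher in 7 alternatives, among them the removal of shCTRL replicate 1 or 2 or of shUBE4B replicate 2. Set against shCTRL, L1CAM differed by -0.27 in shLSD1 and by 0.03 in the double knockdown. Set against shLSD1, 23 of the 30 targets had a change below 0, with a median of -0.09, and 49.5% of all genes did. Without shLSD1 replicate 1, or without replicate 3 of the double knockdown, 1 of the 3 calls was left, while the 513 calls of all genes became 197 and 265.

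With LSD1 shRNA alone, 0 of the 31 members passed limma's test, where 0.82% of all genes did. At an unadjusted p under 0.05 there were 3 members (9.68%), L1CAM, BDNF and SYT4, beside 13.4% of all genes. The methods' t-test with adjustment gave 0 members, but it called only 1 of all 18417 genes, so it could hardly call a member. L1CAM stood at 6.21, 6.40 and 6.32 in shCTRL and at 6.01, 6.07 and 6.05 in shLSD1, which did not overlap. The change of -0.27 had a 95% interval of -0.43 to -0.11 and a limma adjusted p of 0.116. The median of the 30 targets was -0.03, and the members' changes ran from -0.27 to 0.25, with standard errors of 0.06 to 0.14. For the brightest targets the 95% intervals gave a bound, -0.25 to 0.07 for INA, -0.33 to 0.04 for NEFL and -0.29 to 0.00 for STMN3. These bounds apply to a knockdown that left part of the KDM1A RNA.

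When LSD1 shRNA was added to UBE4B shRNA, 0 members passed limma's test, beside 0.147% of all genes. At an unadjusted p under 0.05 there were 5 members (16.1%), near the 13% of all genes. The methods' t-test gave 0 members, but again called only 1 of all 18417 genes. STMN3 and CPLX1 had positive differences here, of 0.22 (95% interval 0.08 to 0.37, limma adjusted p = 0.213) and 0.27 (0.04 to 0.49, limma adjusted p = 0.317). The interaction, which asks whether the double knockdown departs from the sum of both single ones, was called for 0 members, and for 0% of all genes, in limma. Of the members, 5 had an unadjusted p under 0.05 (BDNF, CPLX1, GRIA2, L1CAM and STMN3), which is 16.1% beside 13.1% of all genes. STMN3 had an interaction of 0.37 (standard error 0.10, limma adjusted p = 0.198) and L1CAM one of 0.43 (standard error 0.10, limma adjusted p = 0.185). Averaged over both UBE4B states, the LSD1 shRNA effect was called for 0 members in limma, while 1.48% of all genes passed, and 5 members (GAP43, NEFL, NEFM, SYT1 and SYT4; 16.1%) had an unadjusted p under 0.05, beside 12.9% of all genes. SYT4, a dim synaptotagmin, differed by 0.24 there (limma adjusted p = 0.192), and it was called higher without shCTRL replicate 2.

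**Figure D3:**
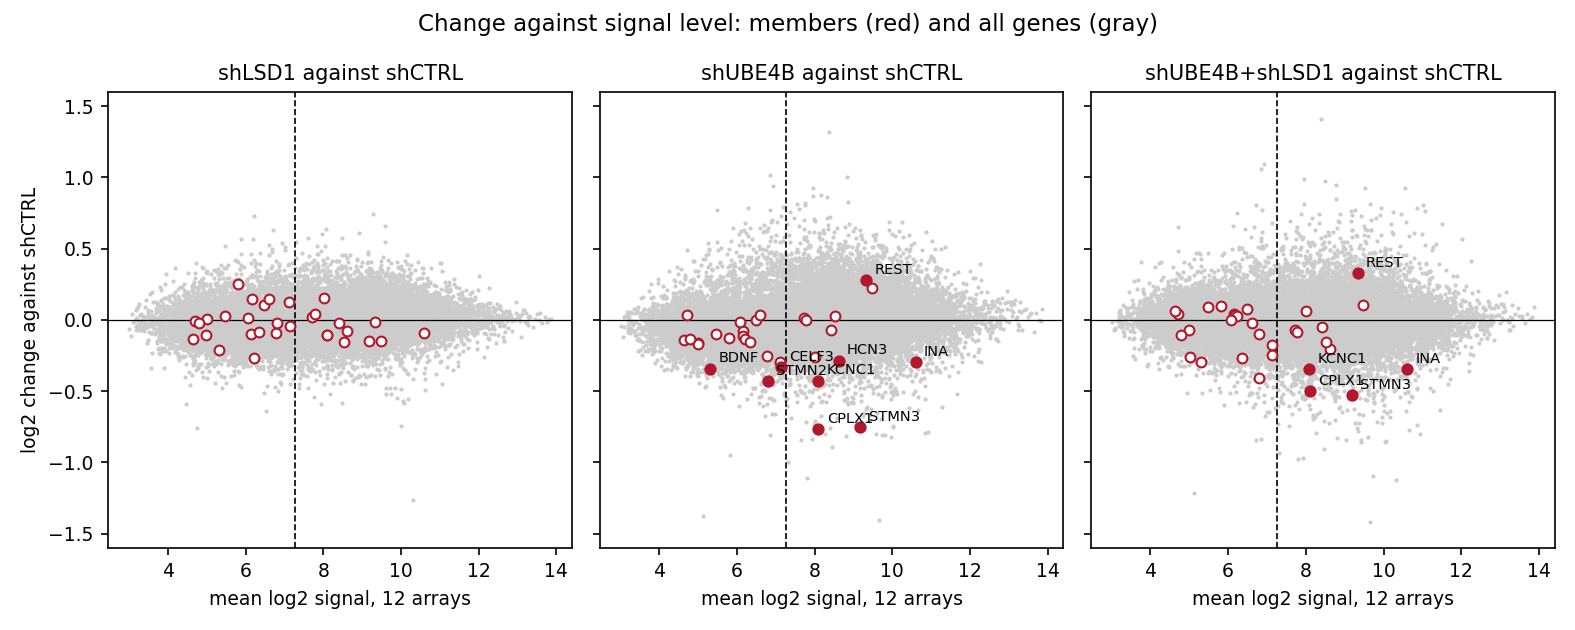
Log2 change against shCTRL (vertical axis) by mean log2 signal over 12 arrays (horizontal axis) for all 18417 genes (gray) and the 31 members (red; filled where limma's adjusted p is under 0.05), in 3 knockdown groups, with the dashed line at 7.26. In shLSD1 0 members are filled, in shUBE4B 3 of the 9 filled members are left of the line, and in the double knockdown all 5 are right of it.

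Of the proteins that work with REST or set its level, 23 of 25 were measured, and 21 of these were above the background line. In shUBE4B, 2 of the 23 were higher and 2 lower, beside 5.59% and 4.47% of all genes. SMARCA4, a chromatin remodeler, rose by 0.32 (limma adjusted p = 0.0204, lost without shCTRL replicate 1 or any 1 shUBE4B array), and USP15, a deubiquitinase, by 0.22 (limma adjusted p = 0.043, kept in 5 of 22 alternatives). BTRC read 9.44, 9.43 and 9.27 in shCTRL, 9.50, 9.43 and 9.56 in shLSD1, 8.84, 9.05 and 8.92 in shUBE4B, and 8.97, 9.18 and 8.91 in the double knockdown, so that the arrays with UBE4B shRNA were lower than all others. BTRC fell by 0.44 in shUBE4B (standard error 0.08, limma adjusted p = 0.00673) and by 0.36 in the double knockdown (limma adjusted p = 0.0203, lost without shCTRL replicate 1 or replicate 1 or 3 of the double knockdown). HMG20B, a CoREST subunit, fell by 0.20 in shUBE4B (limma adjusted p = 0.0494), a call kept in 5 of 22 alternatives. These shifts were not particular to UBE4B shRNA. The 3 shLSD1 arrays too lay above all control arrays for SMARCA4 and USP15, and below them for HMG20B, without a call. RCOR1 was lower in the double knockdown than in shLSD1 by 0.31 (limma adjusted p = 0.0152, lost without shLSD1 replicate 1 or 3 or replicate 1 or 2 of the double knockdown). Its means were 9.74 in shCTRL, 9.90 in shLSD1 and 9.59 in the double knockdown. The shLSD1 arrays lay above all control arrays and the double knockdown below them, so part of the difference lay in the shLSD1 reference. No other gene of this list besides SMARCA4, BTRC and KDM1A was called against shCTRL in the double knockdown, and KDM1A was the only one called in shLSD1.

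A second list of 39 genes repressed by REST, made of secretory granule, vesicle, receptor and transmitter genes, had 34 measured, of which 23 were dim. In shUBE4B 6 of the 34 were lower and 0 higher (31 had a change below 0, median -0.13), beside 4.47% of all genes lower, 56.5% below 0 and a median of -0.03. In the double knockdown 5 were lower and 0 higher (21 below 0, median -0.04), beside 3.83% of all genes lower, 53.1% below 0 and a median of -0.01. In shLSD1 0 of the 34 passed limma's test, beside 0.82% of all genes. An unadjusted p under 0.05 was reached by 5 of the 34, beside 13.4% of all genes, and the lowest limma adjusted p was 0.105. SCG3, a secretogranin that sorts cargo into granules, read 6.12, 5.52 and 5.91 in shCTRL, 5.73, 5.45 and 5.45 in shLSD1, 4.49, 4.37 and 4.55 in shUBE4B, and 4.70, 4.72 and 4.48 in the double knockdown. Both groups with UBE4B shRNA were lower by a wide margin, at signals in the dim range throughout. SCG3 was also lower in the double knockdown than in shLSD1, by 0.91 (standard error 0.13, limma adjusted p = 0.00256).

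SYP, the vesicle protein synaptophysin, read 8.38, 8.42 and 8.36 in shCTRL, 8.28, 7.97 and 8.21 in shLSD1, 7.38, 7.31 and 7.13 in shUBE4B, and 7.38, 7.41 and 7.45 in the double knockdown. Its shUBE4B level was 46.3% of control and its level in the double knockdown 59.8% of that in shLSD1 (limma adjusted p = 0.000676). RUNDC3A, a neuronal RUN domain protein, fell by 0.61 in shUBE4B and by 0.59 in the double knockdown (limma adjusted p = 0.00408 and 0.00447). MAPK8IP2, a JNK scaffold, fell by 0.46 in both groups with UBE4B shRNA (limma adjusted p = 0.00175 and 0.00144). UNC13A, which primes vesicles and holds the spaced boxes shown above, read 5.94, 5.94 and 6.03 in shCTRL and 5.41, 5.62 and 5.63 in shUBE4B. It fell by 0.42 there (limma adjusted p = 0.00969), whereas in the double knockdown it read 5.82, 5.88 and 5.69, a change of -0.17 that was not called (limma adjusted p = 0.271). RAB3A, a vesicle GTPase named after its value was seen, fell by 0.44 in shUBE4B (limma adjusted p = 0.00396), and its 3 shLSD1 arrays of 9.27, 9.08 and 9.07 were already below the 3 control arrays of 9.39, 9.55 and 9.35. VGF, with an element over its start, had means of 7.43 in shCTRL and 7.26 in shUBE4B and was not called.

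**Figure D4:**
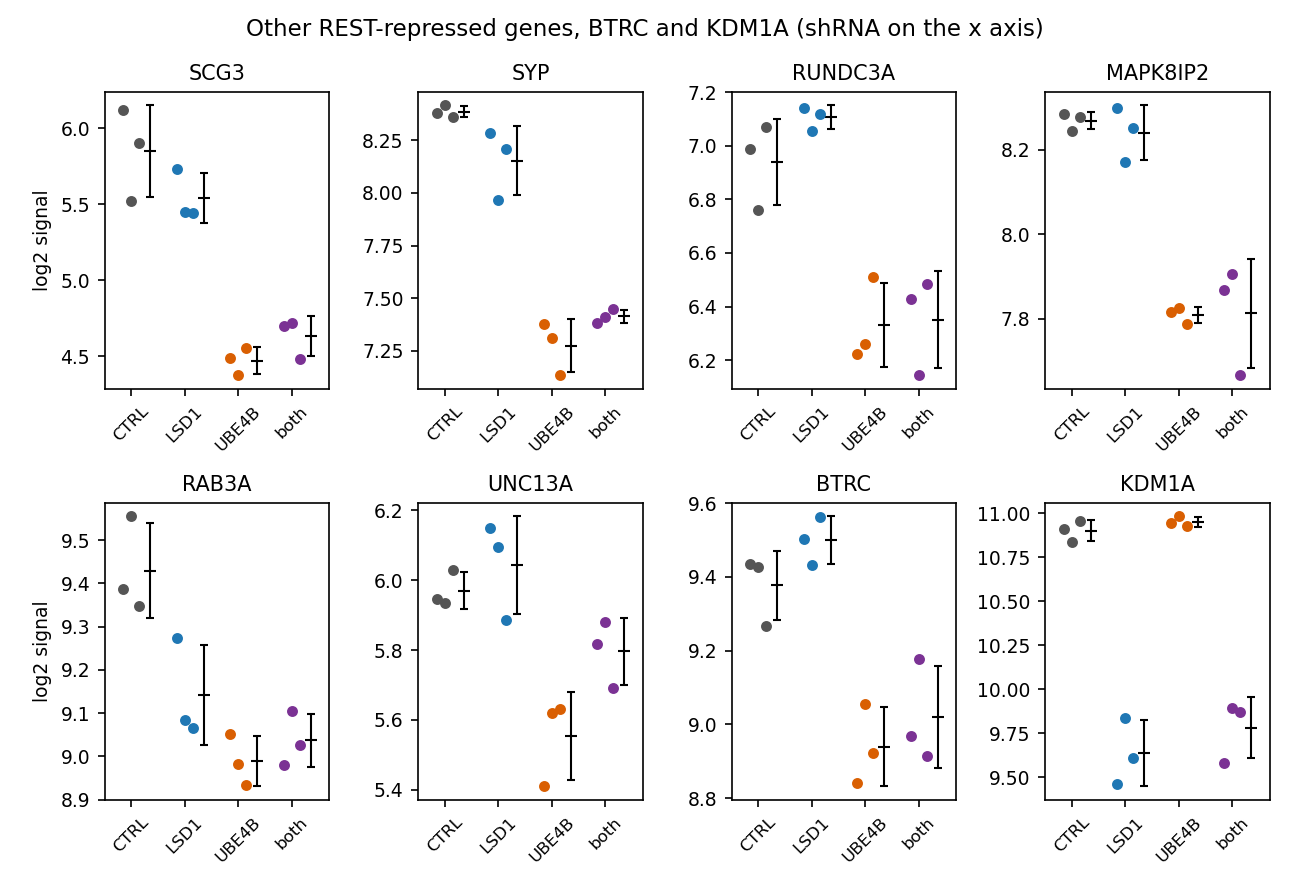
Log2 signal of 6 REST targets from the second list and of BTRC and KDM1A on each of 12 arrays (points) with the group mean and SD (black bars), on axes that differ between genes. The 6 arrays with UBE4B shRNA (orange, purple) lie below the 6 without it for SCG3, SYP, RUNDC3A, MAPK8IP2, UNC13A and BTRC, and KDM1A is low where LSD1 shRNA was given (blue, purple). These genes too were picked by calls from the same arrays, with no share of all genes computed for such a separation.

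The cells carried RNA of their labelled line and of several neuronal genes. Of 6 measured genes typical of HEK293T, 5 were above the background line, and 0 were called in shUBE4B or the double knockdown by limma, with a median change of -0.09 in shUBE4B (4 of 6 below 0). All 13 genes of a general neuronal list were measured, and 11 were above the line. In shUBE4B 4 of these were lower, ENO2 by 0.80, CRMP1 by 0.55, RBFOX3 by 0.37 and UCHL1 by 0.34, and 0 were higher, beside 4.47% of all genes lower. The list went both ways, since DPYSL3 was called higher in the double knockdown, by 0.22 (limma adjusted p = 0.0438, kept in 6 of 22 alternatives). In shUBE4B, NRCAM, DPYSL3 and TUBA1A had changes of 0.37, 0.19 and 0.18 that were not called (limma adjusted p = 0.0671, 0.0663 and 0.103), and NRCAM and TUBA1A are named after their values were seen. The change of RBFOX3 was -0.15, not called, when all its rows were averaged. ENO2, neuronal enolase, was at 57.4% of control in shUBE4B and at 57.8% in the double knockdown. The summed linear signal of the 13 genes, on a log2 scale, ran from 12.51 to 12.63 in shCTRL, 12.32 to 12.44 in shUBE4B, 12.49 to 12.57 in shLSD1 and 12.31 to 12.46 in the double knockdown, so it was lower where UBE4B shRNA was given. Glial markers gave 1 of 7 above the line and 0 called in limma, with 6 of 7 below 0 and a median change of -0.12 in shUBE4B, close to the -0.14 of the REST targets. Colon markers, chosen for another line of the study, gave 2 of 10 above the line, and EPCAM was lower by 0.55 in shUBE4B and 0.58 in the double knockdown (limma adjusted p = 0.0264 and 0.0232, kept in 11 and 13 of 21 alternatives). What the shift of these lists has to do with the REST targets was not tested.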

How the data were processed

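Total RNA of HEK293T cells was labelled and hybridized to Affymetrix Human Gene 1.0 ST arrays, 3 arrays in each of 4 groups. The labelling kit is given as Ambion Expression WT, but the study's supplement names the Affymetrix 3' IVT Express kit, and which was used is not settled here. The values, as deposited by the authors, are log2 signals per transcript cluster that were made with RMA in Partek on genome build hg19, and tool versions are not given in the sources used here. RMA brings arrays to about 1 distribution, which hides any difference in the amount of RNA a cell holds. The number of arrays limits the precision.

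Symbols were updated with a RefSeq table (27 were not matched). Of 33297 rows, 19460 carried 1 symbol, 1754 several and 12083 none, and rows other than those with 1 symbol were not used, which left 18417 genes, each by its brightest row. limma 3.58.1 in R 4.3.3 (lmFit, eBayes without trend) was fitted to 4 group means of all 12 arrays, with 8 residual and 5.13 prior degrees of freedom, without a replicate block. The procedure was tested on simulated data. The methods' Student test was kept as an alternative, and the others were a replicate block, trend and robust settings, the 6 arrays of a comparison, array weights, quantile normalization, median centring, mean rows, removal of the 40% dimmest genes, all rows, and each array left out. Members and lists were chosen with earlier results of these data known. Every member is accounted for, and of the other lists at most 4 called genes per comparison are named by size of change, besides UBE4B and KDM1A, with genes outside this rule marked. The lists were REST cofactors and regulators (23 measured), other REST targets (34), general neuronal genes (13), HEK293T (6), colon (10) and glial (7) markers, and genes silent in this line (29). Summaries were made in Python 3.11.15 with NumPy 2.4.6, and plots with matplotlib 3.10.9.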

Additional observations from a re-analysis of the deposited data

How the results depend on the processing

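No member's call changed direction under any alternative that was run. Of the members, 9 were called in shUBE4B, 5 in the double knockdown and 3 when the double knockdown was set against shLSD1. Over all 18417 genes these counts were 1854, 1393 and 513. With limma on only the 6 arrays of the comparison the members' counts became 3, 2 and 2, while those of all genes became 693, 420 and 413. In the last, REST and SYN1 were lost and L1CAM was gained as higher. With the methods' t-test after adjustment all 3 members' counts became 0, and those of all genes 46, 48 and 9. At the study's own limits for pathways (1.2-fold and an unadjusted p), that t-test passed 9 members in shUBE4B, 1 in shLSD1 and 7 in the double knockdown. By its unadjusted p under 0.05 alone, 3499, 1805 and 2731 of the 18417 genes passed. The share of all genes at both limits was not computed, so these counts show nothing particular to the members. Against shLSD1 the members' count was 5 with trend and robust settings and 5 with the 40% dimmest genes removed, beside 781 and 801 of all genes tested. With array weights the averaged LSD1 effect had 1 call among members, SYT4, beside 582 of all genes, against 273 of all genes without weights. Leaving out each array in turn gave 3 to 9 calls in shUBE4B, 3 to 5 in the double knockdown, 1 to 4 against shLSD1 and 0 to 1 for the averaged LSD1 effect. Over all genes the same removals gave 909 to 2328, 862 to 1549, 159 to 808 and 111 to 736 calls. The cause was not tested.

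With the replicate number as a block (replicate block), the counts were 10 in shUBE4B, 6 in the double knockdown and 5 against shLSD1, gaining SYN1 in the first, STMN2 in the second, and CPLX1 and STMN2 in the last. Over all genes the block gave 2309, 1821 and 686 calls. The labels do not say what a number marks. Deviations correlated above 0.1 in 10 of 18 same-numbered pairs (range -0.0801 to 0.328), not in every pair, so the numbers were not taken as pairs, although 8 of 12 arrays correlated best with their own number, a hint from the data of something shared. The t-test and the 6-array fit were not run for the interaction and the averaged effect. Dim members numbered 17 by the 40th percentile of all genes in place of 19, and signals near the background limit what can be seen of them.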
